A study of Mus musculus with 2 samples.

Results

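Collagens are the extracellular proteins whose chains wind into a triple helix, and in the mouse each chain has its own gene. The 44 collagen genes described here were taken by name from 19938 genes: a gene entered if the platform's annotation paired a probe set with it alone and its symbol was Col, a number, the letter a and a number. For each gene the probe set of highest mean signal was used, and 42 of the 44 had only 1. RNA came from mouse ear at E18.5, on 1 array of wild-type BALB/c tissue and 1 array of BALB/c tissue null for both Myf5 and Myod1, the regulators that commit cells to skeletal muscle. Both groups share strain and age, and the labels name no treatment. Left unsaid by the labels are the dissected region, the kind of null allele and whether an array holds 1 embryo or several.

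With a single array for each genotype, no difference could be tested against a spread between animals, and the precision is limited by that number. Values are the deposited log2 signals, and a difference is the double knockout minus the wild type on that scale. Dim signals were raised to the median of their own array, called the floor, which stood at 5.65 for wild type and 5.70 for the mutant. Of the 44 genes, 36 lay above the floor on both arrays, 1 on the double-knockout array alone, and 7 on neither. As a yardstick of measurement noise alone, the log2 differences of 619 genes with several probe sets had a standard deviation of 0.168 within a gene.

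Collagens are grouped by what their trimers build. The fibril-forming collagens make the fibrils of bone, skin, tendon and cartilage, and the fibril-associated collagens decorate those fibrils. Type IV collagen is the sheet of basement membranes, and type VI makes the beaded filaments between cells and their matrix. In skeletal muscle, each fibre lies in a basement membrane and is wrapped in connective tissue that fibroblasts lay down. In the ear, the cartilage collagens serve the otic capsule and the auricle, and several of them also serve the tectorial membrane of the cochlea.

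Every type VI chain above the floor read lower in the double-knockout ear, by 1.33-fold to 1.48-fold. The 7 listed cartilage collagens differed by -0.05 to 0.27 on the log2 scale. That list leaves out Col10a1, the collagen of hypertrophic cartilage, which was 2.14-fold lower. Of the 37 collagen genes above the floor, 1 was at least 2-fold lower, Col10a1, against 1.71% of all 12458 genes above the floor, and 0 were at least 2-fold higher, against 0.482%. At 1.5-fold 2 were lower, Col10a1 and Col15a1, against 3.62% of all genes, and 0 were higher, against 2.25%. These counts are near the background and say little about collagens as a family. The median difference was -0.10, against -0.01 over all genes. Of the 37, 24 were below 0, or 64.9%, against 50.8% of all genes. At a log2 difference of -0.25 or lower stood 12 of the 37, or 32.4%, against 13.9% of all genes, and at 0.25 or higher stood 2, or 5.41%, against 11.8%; this step was chosen after the values were seen. The summed linear signal of the 44 genes was 20155 on the wild-type array and 17882 on the double-knockout array, a ratio of 0.887.

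**Figure D1:**
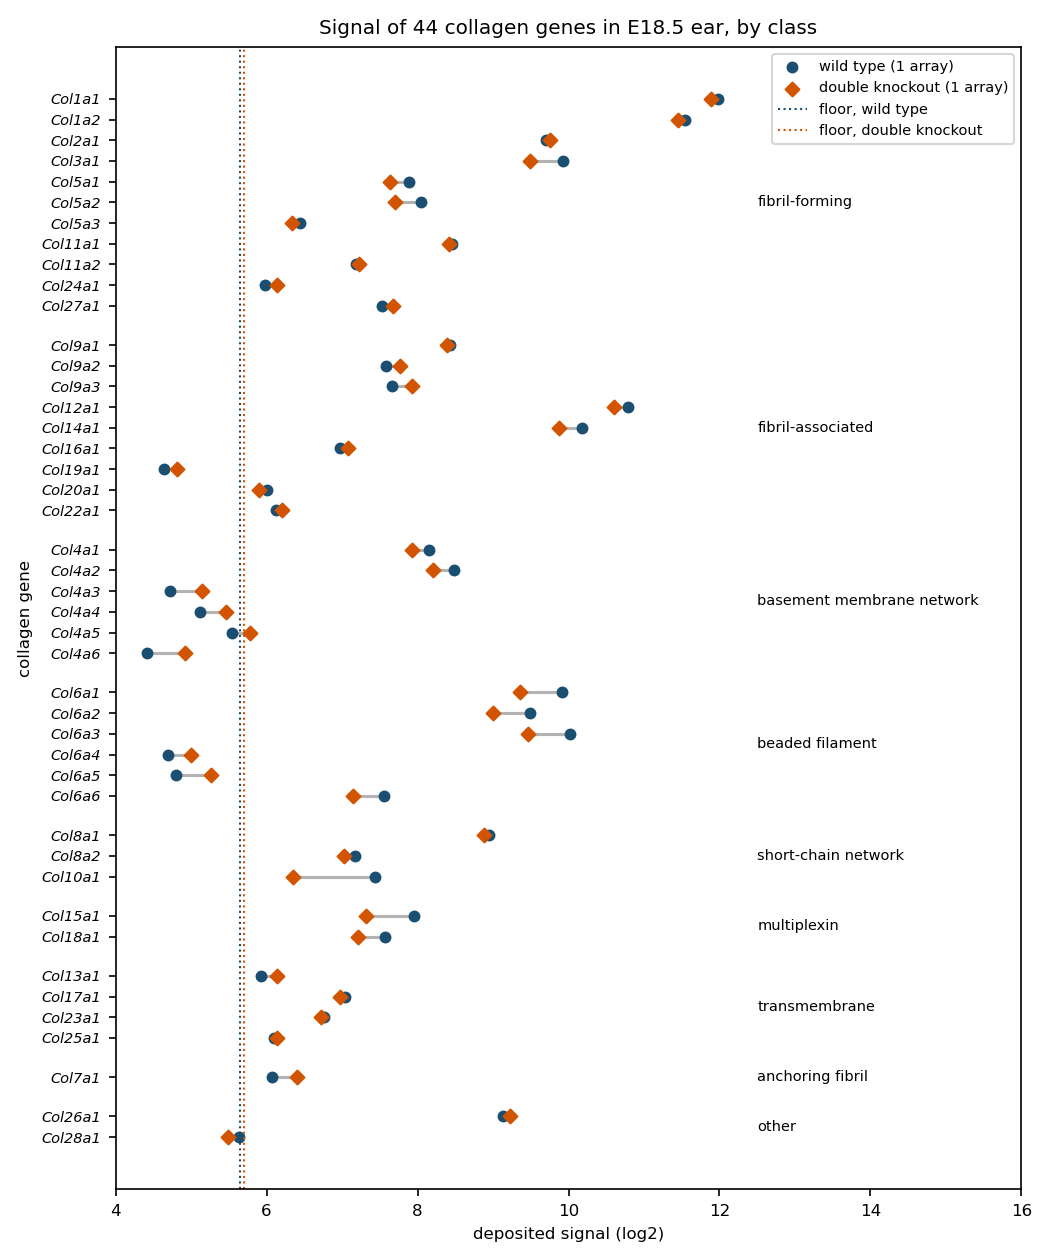
Deposited log2 signal of the 44 collagen genes, grouped by class, in the wild-type array (circles) and the double-knockout array (diamonds), with each array's floor as a dotted line and a grey line joining both values of a gene. The chains of type VI above the floor, Col15a1, Col3a1 and Col10a1 have visibly lower double-knockout values, and the 7 genes left of both dotted lines were below the floor on both arrays.

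The tissue was checked against its markers. Of 16 inner ear genes listed, 15 had a probe set and 12 lay above the floor. Those 12 were all within 2-fold, as were 12185 of all 12458 genes above the floor. Oc90, the main otoconial protein, read 11.28 and 11.26. Slc26a4, Pax8 and Otos were below the floor on both arrays. Myod1 read 6.95 on the wild-type array and 6.38 on the double-knockout array, and Myf5 5.94 and 5.25, the latter below the floor; the sources used here do not tell whether these probe sets lie in deleted sequence. Past 2-fold lower in the mutant were 16 of 16 skeletal muscle markers, and their summed linear signal was 34664 in the wild type and 798 there. Other tissues differed too: the summed signal of 8 salivary gland markers was 207 and 10805, that of 7 brain markers 460 and 1049, and that of 8 adipocyte markers 4654 and 8226. The part of these differences in tissue content in the collagen values was not tested. In bulk RNA, fewer cells of a type and less RNA per cell cannot be told apart.

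Type VI collagen is the microfibril of interstitial connective tissue, and inherited defects of its main chains cause muscular dystrophies. Its obligatory chains are those of Col6a1, Col6a2 and Col6a3, and the chains of Col6a4, Col6a5 and Col6a6 can take the place of the last. The sequences that precede the main chains' genes are shown because these chains had similar differences and are not all neighbours: Col6a1 and Col6a2 lie side by side on chromosome 10 and Col6a3 is on chromosome 1. That of Col10a1 is shown because it had the largest difference. Each is the stretch of up to 250 bases before the gene, 5′ to 3′ on the gene's strand, from RefSeq on GRCm38.p6. Capitals mark CANNTG, the letters read by the Myf5 and MyoD family, and TATAAA, the TATA box.
Col6a1 (chr10:76726045-76726294, minus strand): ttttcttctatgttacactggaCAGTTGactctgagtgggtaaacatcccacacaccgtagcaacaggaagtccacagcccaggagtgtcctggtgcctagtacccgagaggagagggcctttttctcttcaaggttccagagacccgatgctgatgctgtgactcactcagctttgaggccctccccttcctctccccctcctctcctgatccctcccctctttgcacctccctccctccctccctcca
Col6a2 (chr10:76623631-76623880, minus strand): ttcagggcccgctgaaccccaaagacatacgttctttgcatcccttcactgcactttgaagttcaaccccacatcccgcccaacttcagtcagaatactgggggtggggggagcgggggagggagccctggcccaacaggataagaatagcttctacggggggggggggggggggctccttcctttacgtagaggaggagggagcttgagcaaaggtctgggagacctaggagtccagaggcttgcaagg
Col6a3 (chr1:90844002-90844221, minus strand): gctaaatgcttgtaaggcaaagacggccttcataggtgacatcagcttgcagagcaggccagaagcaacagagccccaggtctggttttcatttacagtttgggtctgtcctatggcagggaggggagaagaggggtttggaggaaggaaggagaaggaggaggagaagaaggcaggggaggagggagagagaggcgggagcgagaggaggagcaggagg
Col10a1 (chr10:34389731-34389980, plus strand): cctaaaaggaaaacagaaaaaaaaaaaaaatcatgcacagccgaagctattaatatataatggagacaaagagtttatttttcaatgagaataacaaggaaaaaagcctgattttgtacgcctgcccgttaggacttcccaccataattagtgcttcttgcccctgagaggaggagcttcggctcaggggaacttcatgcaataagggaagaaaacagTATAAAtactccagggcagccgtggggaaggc

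Among these stretches CANNTG, searched on both strands, occurred 1 time, in that of Col6a1 at 228 bases before the start, and the E-box CAGCTG occurred 0 times. TATAAA occurred 1 time, at 32 bases before the start of Col10a1. Of 32851 promoter windows of 250 bases, 66.2% held CANNTG, 13% held CAGCTG, which is one form of it, and 12.4% held TATAAA. Of the 44 collagen genes, 35 had promoter windows, 38 in all, of which 50% held CANNTG, 15.8% CAGCTG and 13.2% TATAAA. The GC box GGGCGG was in 57.9% of the collagen windows and in 32.7% of all windows. Also searched were CCAAT, in 34.2% of the collagen windows and 33.8% of all, and TGANTCA, in 2.63% and 6.75%. TGANTCA occurred 1 time in the Col6a1 stretch. Of the 4 stretches shown, GGGCGG was in that of Col6a2 alone, 1 time; Col6a2 has another annotated start, whose window, not shown, held it 3 times. These matches are descriptions of letters in a short window and not sites of binding.

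Col6a1 (probe set 10370210) read 9.91 on the wild-type array and 9.36 on the double-knockout array, a difference of -0.55 or 1.47-fold lower. Col6a2 (probe set 10370180) read 9.49 and 8.99, 1.41-fold lower. Col6a3 (probe set 10356520) read 10.02 and 9.46, 1.48-fold lower. The obligatory chains therefore differed by -0.49 to -0.56, and their range of 0.07 was smaller than the standard deviation between probe sets of a gene. Of all genes, 4.01%, 4.84% and 3.89% had lower differences than Col6a1, Col6a2 and Col6a3, and each also lay below the 5th percentile, -0.45, of the 2492 genes of highest signal. None of these genes reached 2-fold or 1.5-fold.

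Col6a6 had a pair of probe sets. The brighter read 7.55 on the wild-type array and 7.14 on the double-knockout array, a difference of -0.41, and the dimmer read 6.79 and 6.05, a difference of -0.74. Both were lower in the double knockout. Col6a4 and Col6a5 were below the floor on both arrays, at 4.70 and 4.99 for Col6a4 and 4.80 and 5.26 for Col6a5, and have no difference here. The 4 chains above the floor had a median of -0.52, and the summed linear signal of the class was 2963 on the wild-type array and 2083 on the double-knockout array, a ratio of 0.703.

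Multiplexins are collagens of the outer face of basement membranes. Col15a1 (probe set 10504775), whose protein is found around muscle fibres and capillaries, read 7.96 on the wild-type array and 7.32 on the double-knockout array, 1.56-fold lower, and 3.09% of all genes had a lower difference. Col18a1, the gene whose product is the source of endostatin, read 7.56 and 7.22, 1.27-fold lower. Both members were thus below 0. Of type IV, Col4a1 read 8.15 and 7.92 and Col4a2 read 8.48 and 8.21, with differences of -0.23 and -0.27. These genes encode the chains found in nearly every basement membrane. In RefSeq they lie on opposite strands of chromosome 8 and overlap at their 5′ ends, with annotated starts 21 bases apart. Their differences lay within 0.05 of each other.

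The other type IV chains are those of specialised basement membranes, including those of the cochlea. Col4a5 read 5.55 in the wild type, below the floor, and 5.78 in the double knockout, just above it, at least 1.10-fold higher. Col4a3, Col4a4 and Col4a6 were below the floor on both arrays, with deposited values of 4.72 and 5.14, 5.11 and 5.46, and 4.41 and 4.92. The array therefore gave no usable level for these chains. The class median of -0.23 rests on 3 genes, and turned to 0.29 with no floor, when the dim chains entered.

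Other proteins of basement membranes were read from a list. Of 17 laminin, nidogen and related genes above the floor, 12 were below 0, or 70.6% against 50.8% of all genes, and 5 above. The median was -0.16, and 0 were past 1.5-fold either way, against 3.62% of all genes lower and 2.25% higher. Nid1, the nidogen that links laminin to type IV collagen, differed by -0.29, Lamc1, the common laminin gamma chain, by -0.41, and Hspg2, the proteoglycan perlecan, by -0.37. Lama2, the laminin chain of muscle fibres, named after its values were seen, read 8.92 and 8.39. The highest differences of the list, also picked by value, were those of the laminin chain Lamc3 at 0.46, of Smoc1 at 0.23 and of the laminin chain Lama1 at 0.17. The 8 endothelial markers, whose cells also lie on such membranes, had a median of -0.07, with Cdh5 at -0.02 and Emcn at 0.21. Of these markers 5 were below 0, or 62.5% against 50.8% of all genes, and the lowest difference was -0.36. Their summed signal was 4131 on the wild-type array and 4164 on the double-knockout array.

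**Figure D2:**
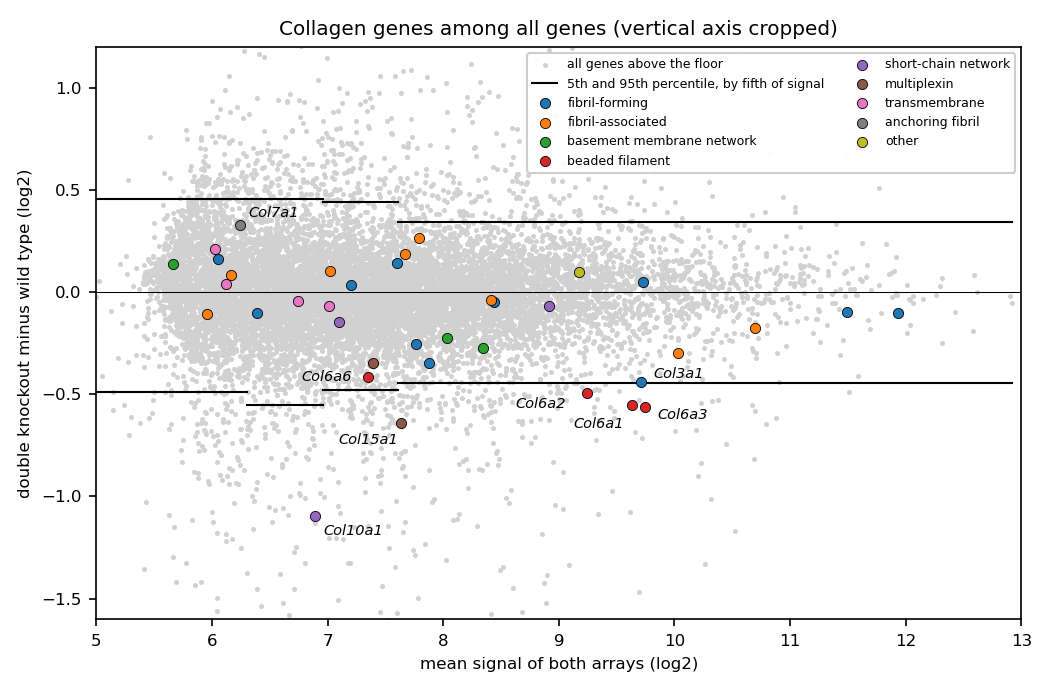
Difference between the arrays (double knockout minus wild type, log2) against the mean log2 signal, for all genes above the floor (grey, axis cropped at -1.6 and 1.2) and for 37 collagen genes coloured by class, with black lines at the 5th and 95th percentile of 5 equal bins of genes by signal. Col6a1, Col6a2, Col6a3, Col15a1 and Col10a1 lie below the lower line, and no collagen gene lies above the upper one.

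Among fibril-forming collagens the members went different ways. All 11 lay above the floor on both arrays and none reached 1.5-fold, with a median of -0.10, 7 below 0 and 4 above. Col3a1, the collagen of extensible tissue and of the sheaths around muscle, read 9.93 on the wild-type array and 9.49 on the double-knockout array, 1.36-fold lower. Col5a2 read 8.05 and 7.70 and Col5a1 read 7.89 and 7.64, 1.27-fold and 1.19-fold lower. Type V chains set the width of collagen fibrils, and Col5a2 is the immediate neighbour of Col3a1 on chromosome 1. The third type V chain, Col5a3, differed by -0.10, from 6.44 to 6.34.

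Col1a1 and Col1a2, which encode the main collagen of bone, skin and tendon, read 11.99 and 11.54 in the wild type and 11.89 and 11.45 in the double knockout. Their differences were within 0.0042 of each other. Neither differed by more than the standard deviation within a gene. The collagens of dense connective tissue listed here were Col1a1, Col1a2, Col3a1, Col5a1, Col5a2, Col12a1 and Col14a1, a list chosen with earlier results of these data known. Below 0 were 7 of 7, against 50.8% of all genes, with a median of -0.26 and a spread from -0.44 to -0.10. Col14a1 read 10.18 and 9.88 and Col12a1 10.78 and 10.61; both encode fibril-associated collagens of tendon, skin and the sheaths of muscle.

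The 7 listed cartilage collagens, a list without Col10a1 of hypertrophic cartilage, stood close to 0. Col2a1, the fibril-forming collagen of cartilage, read 9.70 on the wild-type array and 9.75 on the double-knockout array. Its partners in the cartilage fibril, Col11a1 and Col11a2, read 8.46 and 8.41, and 7.18 and 7.22, on the wild-type and double-knockout arrays in turn. Of type IX, which coats that fibril, Col9a1 differed by -0.04, Col9a2 by 0.19 and Col9a3 by 0.27. Col9a3 went from 7.66 to 7.92 and was 1 of the 2 collagen genes at 0.25 or higher. Col27a1, a fibrillar collagen of growing cartilage, read 7.52 and 7.67. The 7 cartilage collagens had a median of 0.05, from -0.05 to 0.27, with 5 above 0. Their summed linear signal was 2253 and 2353, where that of the dense connective tissue list was 11439 and 10204.

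Cartilage markers other than collagens had the same median, 0.05 over 12 genes, but a wider spread, from -0.66 to 0.42. Of the 12, 5 were below 0, or 41.7% against 50.8% of all genes, and 7 above. Cnmd, the cartilage growth factor chondromodulin, differed by 0.21, Acan, the main cartilage proteoglycan, by 0.05 and Epyc by 0.13. Chad, which encodes a cartilage protein that binds collagen, was the member past 1.5-fold, at 7.85 and 7.19. Matn3 and Snorc were below the floor on both arrays. The summed signal of the list was 3293 on the wild-type array and 3465 on the double-knockout array.

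Col10a1 had the largest difference of any collagen gene. It encodes the network collagen of hypertrophic chondrocytes, the cells whose matrix is replaced by bone. On probe set 10362495 the wild-type array read 7.44 and the double-knockout array 6.34, 2.14-fold lower, and 1.501% of all genes had a lower difference. Both values lay above the floor, and the gene has no other probe set here. In RefSeq the gene lies inside Nt5dc1, which read 6.19 and 6.03, a difference of -0.16. With the floor at the 75th percentile, nearly as high as the wild-type value, the difference of Col10a1 was -0.09, and with each array's median signal added it was -0.75.

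Other genes of hypertrophic cartilage and bone lay nearer to 0. All 8 above the floor were within 1.5-fold, with a median of 0.02. Of all genes, 3.62% were at least 1.5-fold lower and 2.25% higher. Ibsp, a bone matrix protein, differed by 0.24, Alpl, the alkaline phosphatase of mineralizing tissue, by 0.08 and Mmp13, a collagenase made by late hypertrophic chondrocytes, by -0.17. Ihh, the signal of chondrocytes about to enlarge, read 5.69 and 5.93, and the lowest of the list, Dmp1 and Phex of bone cells, differed by -0.45 and -0.37; the choice of these 3 genes followed a look at the values. Of the other short-chain collagens, which build hexagonal lattices beneath endothelia, Col8a1 read 8.95 and 8.88 and Col8a2 7.17 and 7.02.

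Of 4 collagens known from muscle and its contacts, 3 were above the floor, and these were not lower in the double knockout. Col22a1, the collagen of the junction between muscle and tendon, read 6.12 on the wild-type array and 6.21 on the double-knockout array. Col25a1, a membrane collagen of developing myotubes that motor axons need to enter muscle, read 6.10 and 6.14, and Col13a1, a membrane collagen of the neuromuscular junction, read 5.92 and 6.13. Col19a1, which muscle precursors make in the embryo, was below the floor on both arrays, at 4.64 and 4.81. All 3 that were measured lay within 0.5 of the wild-type floor, where a loss of signal could shift a value only a little: a fall to the floor would be at most 0.48 for Col22a1 and 0.46 for Col25a1. These values therefore cannot show whether muscle transcripts of these genes were lost.

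The remaining collagens belong to epithelia, nerves or less studied matrices. Col17a1, the membrane collagen of the hemidesmosomes that fasten basal keratinocytes, read 7.04 on the wild-type array and 6.97 on the double-knockout array. Col7a1, the anchoring fibril beneath the epidermis, read 6.08 and 6.40, the highest difference among the 37 collagen genes above the floor at 0.33, and 92.3% of all genes had a lower difference. The 8 markers of basal keratinocytes had a median of 0.00, with Krt5 at 0.05, and their summed signal was 2421 and 2358. Col23a1, another membrane collagen, read 6.76 and 6.72. The 4 membrane collagens had a median of -0.0018 and a range of -0.07 to 0.21.

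Col16a1 and Col24a1 differed by 0.10 and 0.16, and Col20a1 by -0.11. Col26a1, an EMI-domain collagen first found in the gonads, read 9.13 and 9.23. Col28a1, a collagen of peripheral nerve sheaths, was below the floor on both arrays, at 5.63 and 5.48. None of these differences exceeded the standard deviation within a gene.

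Position on the chromosome was set beside these values. The 44 genes lie on 15 chromosomes, and 8 pairs of them are immediate neighbours among protein-coding genes in RefSeq. In 3 of those pairs both genes were above the floor: Col3a1 and Col5a2 at -0.44 and -0.34, Col6a2 and Col6a1 at -0.49 and -0.55, and Col4a1 and Col4a2. In each of these pairs both genes were lower in the double knockout, where 50.8% of all genes were below 0. In the other pairs a gene or both genes were below the floor on both arrays. These dim genes, Col19a1, Col4a3, Col4a4, Col4a6, Col6a4 and Col6a5, had higher deposited values in the double knockout and have no difference here. Col18a1 lies beyond Col6a1 with Pcbp3 and Slc19a1 between them, and these intervening genes read -0.09 and 0.29 as differences, unlike the -0.55 and -0.35 of the collagens on either side. Col9a3 and Col20a1, with 9 protein-coding genes between them on chromosome 2, went opposite ways, at 0.27 and -0.11.

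The proteins that make and finish collagen were read from lists. Of 17 hydroxylases, glycosyltransferases and chaperones above the floor, 15 were below 0, or 88.2% against 50.8% of all genes. At least 1.5-fold lower were 3, or 17.6% against 3.62%, and 0 were higher, against 2.25%, with a median of -0.20. The counts below 0 of the other lists have the same background of 50.8%. P3h2, a prolyl 3-hydroxylase of type IV collagen, read 8.46 on the wild-type array and 7.23 on the double-knockout array, 2.35-fold lower. P4ha2, a catalytic subunit of the prolyl 4-hydroxylase that stabilises the helix, read 7.23 and 6.52, and Plod2, the lysyl hydroxylase of collagen ends, read 8.71 and 8.12. The most abundant members differed less: Ppib, a prolyl isomerase, by 0.11, P4hb, the partner of the prolyl 4-hydroxylases, by -0.03 and Plod1, a lysyl hydroxylase, by -0.24. Serpinh1, the collagen chaperone HSP47, was named after its values were seen and differed by 0.08.

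Enzymes that act outside the cell were all within 1.5-fold, where 3.62% of all genes were at least 1.5-fold lower and 2.25% higher. Of 7 procollagen-processing genes 5 were below 0, with a median of -0.22; Pcolce, the enhancer of propeptide removal, differed by -0.27, Bmp1, the protease it helps, by 0.01 and Adamts3 by 0.16. The 4 lysyl oxidases, which cross-link fibrils, had a median of -0.16, with Lox at -0.27, Loxl1 at -0.19 and Loxl3 at 0.01. Collagen-degrading proteases had a median of -0.05 over 6 genes, with Mmp2 at -0.08, Ctsk at -0.01 and Mmp14 at -0.22. Of the receptors, Itgb1, the beta subunit of the collagen integrins, differed by -0.33, Ddr2, a receptor kinase for fibrillar collagen, by 0.02 and Adgrg1, a receptor for type III collagen in the brain, by 0.44. Their median was -0.03 over 9 genes.

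**Figure D3:**
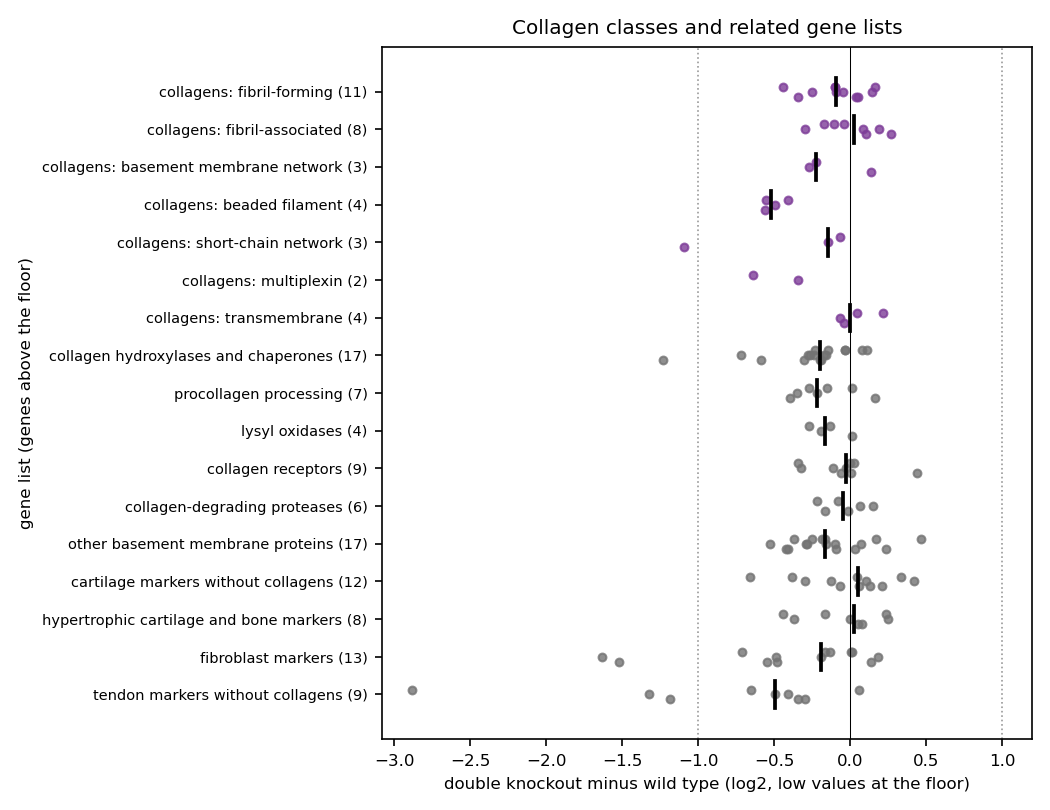
Difference between the arrays (double knockout minus wild type, log2, low values at the floor) for the genes of 7 collagen classes (purple) and of 10 related lists (grey), with the number of genes above the floor in brackets, a black bar at the median of 3 or more genes, and dotted lines at 2-fold. The type VI chains lie together between -0.56 and -0.41 with a median of -0.52, and the tendon list has a median of -0.50.

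Markers of connective tissue cells were also lower in part. Of 13 fibroblast markers above the floor, 9 were below 0, with a median of -0.20, and their summed linear signal was 13606 on the wild-type array and 10764 on the double-knockout array. Dcn, Lum and Postn differed by -0.14, -0.20 and -0.49, whereas Mfap5, a microfibril protein, was 3.10-fold lower, Dpt, a dermatopontin of fibril surfaces, 2.87-fold and Cd34, a surface protein of interstitial fibroblasts and vessels, 1.64-fold. Pdgfra and Pdgfrb, receptors of fibroblasts in general, were named after their values were seen and differed by 0.01 and 0.18. Of 9 tendon markers 8 were below 0, with a median of -0.50, and their summed signal was 4472 and 3107. Thbs4, a matrix protein of tendon near muscle, differed by -2.88, Kera, a small proteoglycan, by -1.33, Tnmd, the tendon membrane protein tenomodulin, by -1.18 and Scx, the transcription factor of tendon cells, by -0.65. Thbs2 and Fmod, the brightest of the tendon list, differed by 0.05 and -0.30. The 7 macrophage markers above the floor were all below 0, with a summed signal over 8 genes of 1784 and 1452. The part of these cells in the collagen differences was not tested.

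The differences of the brighter collagens moved little with the settings. In 9 other settings Col6a1 lay from -0.55 to -0.52, Col6a3 from -0.56 to -0.53 and Col6a2 from -0.49 to -0.45. Col15a1 ran from -0.64 to -0.50 and Col3a1 from -0.44 to -0.41. Col10a1 and Col6a6 moved more, from -1.10 to -0.09 and from -0.58 to -0.20. For Col6a1, Col6a2, Col6a3 and Col3a1, bright genes with 1 probe set, changing or dropping the floor left the value unchanged by construction. So did taking the median over probe sets. These ranges therefore give no measure of the spread between animals.

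**Figure D4:**
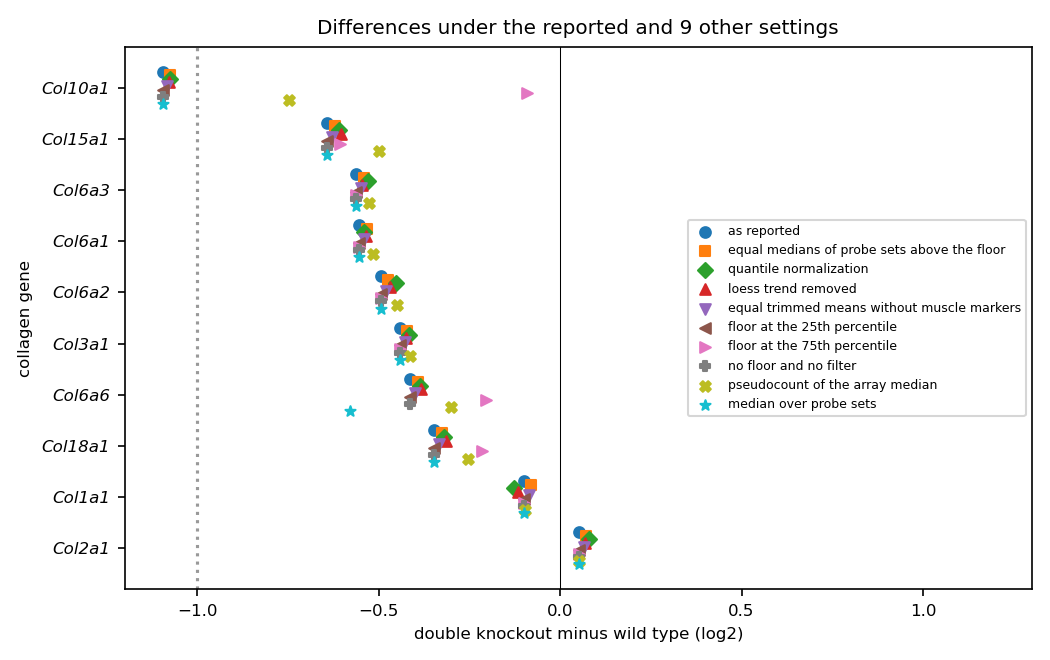
Difference between the arrays (double knockout minus wild type, log2) of 10 collagen genes as reported and under 9 other settings of scaling, floor, pseudocount and choice of probe set, with a dotted line at 2-fold lower. Values of Col6a1, Col6a2, Col6a3 and Col3a1 lie close together, whereas Col10a1 moves to -0.09 with the floor at the 75th percentile and to -0.75 with a pseudocount.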

How the data were processed

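The deposited log2 values cover 35557 probe sets on each of 2 Affymetrix arrays. The base of the logarithm is read from the range. MAS5 is the tool named in the submitters' processing notes. The sources used here give neither its version nor the background correction, normalization or build. Values were used on their deposited scale, with no rescaling between arrays.

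The platform's annotation paired 21789 probe sets with 1 gene. The 44 collagen symbols matched RefSeq by Entrez identifier. Each array's 50th percentile was the floor; a gene entered if above it on at least 1 array, and a fold with 1 side at the floor is a bound, written "at least". A median was taken over 3 or more genes. The 12458 genes were also split into 5 bins by mean signal.

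The members and the 21 lists were chosen with earlier results of these data known. All collagen genes could be named; of other lists, the 3 of highest signal and those past 1.5-fold. 11 listed genes were not analysed here. Alternatives were 4 scalings, a lower floor (25th percentile), a higher one (75th), none at all, the array median added as pseudocount, the median over probe sets and a 1.5-fold threshold. Python 3.11.15, pandas 2.3.3 and numpy 2.4.6 were used, and the calculation was tested on simulated data. With 1 array per genotype there was no test.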

Additional observations from a re-analysis of the deposited data

How the results depend on the processing

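No paired analysis was possible because there was 1 array per genotype, and no array could be left out. A value counted as moved where it differed by more than the standard deviation between probe sets of a gene. Of 37 collagen genes above the floor, 35 had no value moved, 24 of the 37 having values under 9 alternatives and 13 under 8, being too dim for the floor at the 75th percentile. The others were Col10a1 and Col6a6 (-0.20 with the floor at the 75th percentile). Over all genes the counts lower and higher were 213 and 60 as reported, 111 and 21 with that floor, 279 and 92 with none, 159 and 34 with the pseudocount, and 451 and 280 at 1.5-fold. The median over all collagen genes stayed between -0.19 and -0.03, below the median of all genes in each setting. The count at least 2-fold lower was 1 as reported, 0 with the floor at the 75th percentile, 0 with the pseudocount and 2 at 1.5-fold; the count higher was 0 in each. The basement membrane median was -0.23 as reported, 0.29 with the floor at the 25th percentile or with no floor, and 0.16 with the pseudocount, since dim chains then enter; with the floor at the 75th percentile under 3 genes were left and it has no value. The membrane collagens had none there either. The fibril-associated and membrane medians, near 0, changed sign between settings, as did Col9a1 (-0.04 to 0.01). For type VI the class median ran from -0.56 to -0.38. Scalings moved the median of all genes by at most 0.02.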

Other observations

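Genes outside the naming rule whose proteins hold collagen-like repeats were read as well, from a list of 28 written after the collagen values were seen. Of these, 23 lay above the floor, 18 of them below 0, or 78.3% against 50.8% of all genes, and 5 above, with a median of -0.20. The 18 include C1qa, C1qb and C1qc, which are also in the macrophage list, at -0.46, -0.32 and -0.44. They also include Msr1, C1qtnf7 and Otol1, which were above the floor on the wild-type array alone. At least 1.5-fold lower were 4, or 17.4% against 3.62%. C1qtnf3, a secreted protein of growing cartilage and fat, read 8.64 on the wild-type array and 7.53 on the double-knockout array, 2.17-fold lower. Emilin2, an elastic fibre protein, read 7.66 and 6.98, C1qtnf1 7.31 and 6.63, and Cthrc1, a secreted protein of active fibroblasts, 8.66 and 8.04, each at least 1.5-fold lower. Adipoq, the fat cell hormone adiponectin, was the highest, at 8.32 and 8.82. Colq, the collagen tail that anchors acetylcholinesterase at the neuromuscular junction, read 5.95 and 5.78, near the floor on both arrays. Colec12, a scavenger receptor of vessels, read 9.18 on both.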
